A study of Mus musculus with 10 samples.

Results

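Metallothioneins and zinc transporters were examined in mouse livers after deletion of both histone H3.3 genes in hepatocytes. The group held 9 of the 55421 genes in the table, taken by symbol: the metallothioneins Mt1 and Mt2, the metal-sensing transcription factor Mtf1, the zinc importers Slc39a4, Slc39a5, Slc39a8 and Slc39a14, and the exporters Slc30a1 and Slc30a10. All 9 were found and all passed the filter of at least 10 counts summed over the samples. They were chosen because earlier results of the same data showed them to differ between H3.3 KO and control livers. For the comparison of KO with controls their values are therefore a description, and no p-value is given.

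The data come from poly(A) RNA-seq of 10 livers of male mice that were injected with virus at 6 months of age, with the livers taken 3 weeks later. The H3.3 KO group held 4 mice with floxed H3f3a and H3f3b (H3f3a fl/fl, H3f3b fl/fl) that received AAV8-Tbg-Cre, an adeno-associated virus with Cre under a hepatocyte promoter. WT Cre controls were 3 wild-type mice given the same virus. MCS controls were 3 mice floxed for both genes that received AAV8-Tbg-MCS, which carries no Cre. All 10 mice thus carried AAV8, and Cre was present in the KO livers and in the WT Cre controls. The Tbg promoter acts in hepatocytes, so other liver cells keep H3.3. The RNA came from whole tissue, in which fewer cells of a type and less RNA per cell cannot be told apart. For the floxed animals the labels give HIRA fl/fl as genotype, and the groups here follow the sample titles, which name H3f3a and H3f3b. The control columns were tied to the WT Cre and MCS livers by library number.

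Zinc is held at a low free concentration in cells. ZIP proteins (the Slc39a genes) move zinc into the cytosol from outside the cell or from organelles, and ZnT proteins (the Slc30a genes) move it out of the cytosol. Metallothioneins are small cysteine-rich proteins that bind zinc and copper. MTF1 senses free zinc and activates metallothionein genes and Slc30a1 through metal response elements, short motifs in their promoters. In the liver, metallothionein genes also respond to glucocorticoids and to the acute-phase response, and the importer Slc39a14 is known to respond to IL-6. Some of these proteins carry other metals: ZIP8 and ZIP14 also take up manganese, and ZnT10, encoded by Slc30a10, exports it.

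Promoter sequences of the reference genome show where the metal response element core lies. The core was searched on both strands as TGCACNC or TGCGCNC. Of the 9 genes, 7 were in the RefSeq promoter set (build GRCm38.p6), and Slc39a4 and Slc39a14 were not among them. The stretches below run from 250 bases before the annotated transcript start to 30 bases after it and are shown for the metallothioneins and the exporters, the members with at least 2 cores in their windows. Capitals mark each match of the core, and a match on the opposite strand appears as its reverse complement.
Mt1: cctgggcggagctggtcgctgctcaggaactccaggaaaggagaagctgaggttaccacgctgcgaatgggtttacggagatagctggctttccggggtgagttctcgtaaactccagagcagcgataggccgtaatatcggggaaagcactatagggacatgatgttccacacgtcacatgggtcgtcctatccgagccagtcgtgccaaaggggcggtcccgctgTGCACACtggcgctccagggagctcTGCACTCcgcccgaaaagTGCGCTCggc
Mt2: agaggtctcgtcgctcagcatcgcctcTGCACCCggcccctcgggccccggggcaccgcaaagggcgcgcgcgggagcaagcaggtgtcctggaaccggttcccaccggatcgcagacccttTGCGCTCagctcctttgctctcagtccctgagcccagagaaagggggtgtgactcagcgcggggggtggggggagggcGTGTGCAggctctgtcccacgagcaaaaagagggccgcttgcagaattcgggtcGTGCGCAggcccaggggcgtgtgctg
Slc30a1: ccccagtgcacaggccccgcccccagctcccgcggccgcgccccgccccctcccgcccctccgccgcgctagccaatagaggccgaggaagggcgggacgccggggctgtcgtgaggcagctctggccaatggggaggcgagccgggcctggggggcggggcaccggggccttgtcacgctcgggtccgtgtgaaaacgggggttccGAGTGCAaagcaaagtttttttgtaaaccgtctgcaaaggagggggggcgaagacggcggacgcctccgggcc
Slc30a10: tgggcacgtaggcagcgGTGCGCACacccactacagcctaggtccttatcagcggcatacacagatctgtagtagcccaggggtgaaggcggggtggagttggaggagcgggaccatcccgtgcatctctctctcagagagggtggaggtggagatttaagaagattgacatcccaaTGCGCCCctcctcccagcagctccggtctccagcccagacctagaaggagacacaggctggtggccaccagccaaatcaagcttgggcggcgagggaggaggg
These stretches lie at chr8:94178839-94179118 for Mt1, chr8:94172368-94172647 for Mt2, chr1:191906531-191906810 for Slc30a1 and chr1:185454598-185454877 for Slc30a10, all on the plus strand.

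The Mt2 window held 4 cores, at positions -223, -128, -50 and 5, counted from 1 at the annotated start, which need not be the one used in liver. The Mt1 window held 3, at -23, 3 and 21. Slc30a10 also had 3 matches, of which those at -233 and -232 overlap on opposite strands. Slc30a1 had a core at -43 and another at 31, just past the stretch shown. One window each of Slc39a5 (-129) and Slc39a8 (-19) held 1 core, and the window of Mtf1 held none. Over all 32851 promoter windows of 300 bases, 25.7% held at least 1 core, 7.11% at least 2, 1.97% at least 3 and 0.517% at least 4. The 7 genes had 9 windows, of which 6 held at least 1 core. Cores of the form TGCACNC alone were present in 5 of the 9 windows, against 12.6% of all windows. The STAT motif TTCNNNGAA was in none of the members' windows and in 8.3% of all windows. These matches describe letters in a window and are not evidence of binding.

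The targeted genes were low in every KO liver. H3f3a was 62.1 ± 1.58 CPM (counts scaled to a library of 1e6; SD, n = 6) in controls and 17.4 ± 1.66 (n = 4) in KO (log2 fold change -1.83, SE 0.0883, edgeR adjusted p = 3.50e-08). H3f3b was 160.0 ± 24.0 and 50.5 ± 7.40 CPM (-1.66, SE 0.139, edgeR adjusted p = 3.62e-06). Libraries held 14998426 counts (KO 1) to 26096141 counts (MCS control 1). Marker sums showed whole liver in every sample: hepatocyte genes together (11 of 12 found) reached 108000 to 158001 CPM in controls and 82681 to 96239 CPM in KO, and 8 of the 11 fell at an adjusted p under 0.05, led by Slc10a1, Cyp2e1 and Glul. The hepatocyte count was 6 without KO 3, 7 without KO 2 or without KO 4, 9 without KO 1 and 8 without any other single library. Kupffer cell and macrophage markers summed to 311 to 565 CPM in controls and 719 to 1615 CPM in KO, and 10 of 10 rose. Stellate cell markers summed to 207 to 269 and 476 to 750 CPM, with 7 of 8 rising, lymphoid markers to 8.44 to 13.8 and 19.5 to 51.2 CPM, with 6 of 8 rising, and neutrophil markers to 3.46 to 14.5 and 6.26 to 29.3 CPM, with 4 of 7 tested rising. Leaving out single libraries gave a stellate count of 6 or 7 and a lymphoid count of 5 or 6. The neutrophil count was 1 without KO 2, 5 without MCS control 3, 4 without KO 1 and 2 without any other single library. For endothelial markers 1 of 8 rose (225 to 286 and 241 to 439 CPM), but 6 did without KO 1 and 3 without MCS control 3. For cholangiocyte markers 1 of 8 rose (51.0 to 82.2 and 72.1 to 90.8 CPM), with 3 rising without KO 2 and 2 without KO 3. Over all genes tested the same rule called 36.3%, with 19.7% higher and 16.6% lower. The part of these cell markers in the values of the zinc genes was not tested.

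One control library, MCS control 3, stood apart from the others for the metallothioneins and for many of the genes below. For Mtf1, Slc39a4, Slc39a8 and Slc30a1 it lay within the range of the other 5 controls. MCS control 3 was the highest of the 6 controls for all 14 of 14 genes of an IL-6 and STAT3 response list, where 21.0% of all genes tested were highest in that library. Saa1, an acute-phase serum protein, was at 1706 CPM in MCS control 3 and at 17.4 to 58.3 CPM in the other 5 controls. Socs3, a STAT3-induced inhibitor of cytokine signalling, was at 27.8 CPM against 3.57 to 6.65, and Lcn2, an acute-phase iron-withholding protein, at 91.7 CPM against 1.29 to 4.73. Of 8 glucocorticoid-responsive genes 5 were highest there, Fkbp5 at 206 CPM against 36.2 to 76.7. The rest went otherwise: Tsc22d3 and Per1 were highest in MCS control 1, and Dusp1 was lowest in MCS control 3 (27.7 CPM against 31.5 to 70.8). Some of these genes also separated the kinds of control. Zbtb16 was at 43.2, 42.1 and 65.2 CPM in MCS controls 1 to 3 and 4.63 to 9.25 CPM in WT Cre controls. Its log2 fold change (WT Cre against MCS) was -2.92 (edgeR adjusted p = 0.0323). Fkbp5, Tsc22d3, Per1, Errfi1, Il6ra, Cebpd, Fga, Fgb, Fgg and Orm1 were likewise higher in every MCS than in every WT Cre liver. Over all genes 22.2% did not overlap between these groups. Saa1, Socs3 and Lcn2 overlapped. These genes were picked after their values were seen. All 10 Kupffer cell and macrophage markers were also highest in MCS control 3 among the controls (565 CPM summed, against 311 to 373). The neutrophil marker sum of that library was 14.5 CPM against 3.46 to 5.81. Results that rest most on MCS control 3 are given with and without it.

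The metallothioneins gave the widest range of the 9 genes. Mt1 was at 2.33, 6.38 and 3.81 CPM in WT Cre controls 1 to 3, at 13.9, 9.96 and 1099 CPM in MCS controls 1 to 3, and at 35.8, 34.6, 25.3 and 99.1 CPM in KO livers 1 to 4. Mt2 was at 0.667, 1.60 and 1.03 CPM in the WT Cre controls, at 3.01, 1.92 and 757 CPM in the MCS controls, and at 25.5, 25.1, 20.6 and 96.0 CPM in KO. For both genes every KO liver stood above 5 of the 6 controls, and MCS control 3 stood above every KO liver. KO 4 was the highest KO liver for both.

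**Figure D1:**
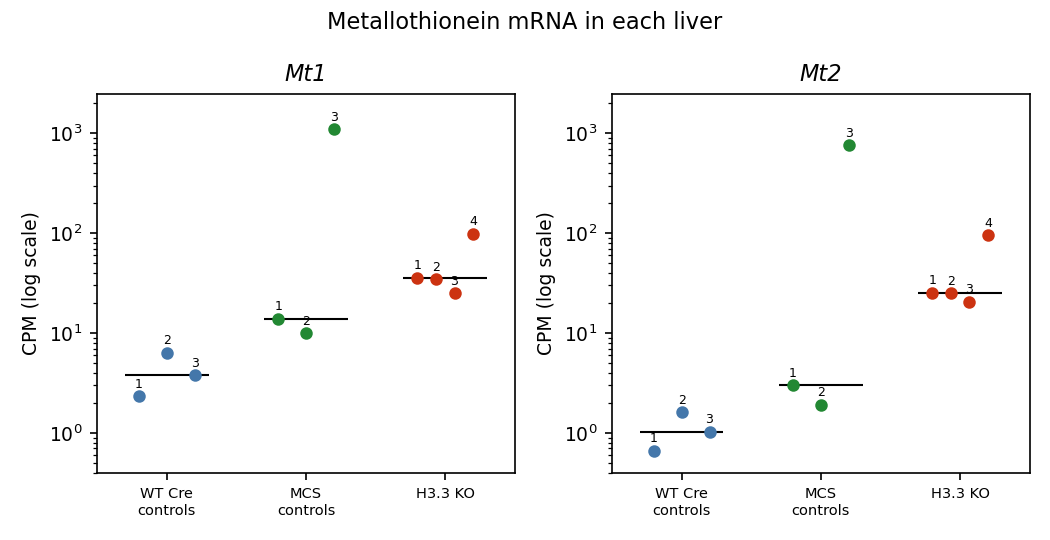
CPM of Mt1 (left) and Mt2 (right) in each liver on a log axis, with the liver's number in its group above each point and the group median as a line. The KO livers lie between 25.3 and 99.1 CPM for Mt1, above 5 controls and below MCS control 3 at 1099 CPM.

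The sign of the pooled fold change of the metallothioneins turned on this one library. Against all 6 controls the log2 fold change of Mt1 in KO was -1.95 (SE 1.95) and that of Mt2 was -1.60 (SE 2.17). Without MCS control 3 they were 2.74 and 4.67. Against the WT Cre controls they were 3.55 (SE 1.72) and 5.25 (SE 2.28). These SEs come from the fit of all 3 groups with a shared dispersion, so the spread of MCS control 3 enters them too. The KO mean was 6.69 times the mean of the other 5 controls for Mt1 (48.7 ± 33.9 against 7.28 ± 4.71 CPM, SD, n = 4 and 5) and 25.4 times for Mt2 (41.8 ± 36.2 against 1.65 ± 0.905 CPM). MCS control 3 was 151 and 459 times that control mean, and 22.6 and 18.1 times the KO mean. The KO livers were thus well short of the level seen in that one control.

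The balance of the metallothioneins also differed between livers. The ratio of Mt1 counts to Mt2 counts was 3.50, 3.97 and 3.69 in WT Cre controls 1 to 3 and 4.62 and 5.19 in MCS controls 1 and 2. It was 1.45 in MCS control 3 and 1.41, 1.38, 1.22 and 1.03 in KO 1 to 4. The 5 livers with the most metallothionein mRNA therefore had the lowest ratios, and those 5 did not overlap the others. The ratios of the WT Cre controls rest on 16 to 37 Mt2 counts per library, and those of the KO livers on 391 to 2511. The genes lie side by side on chromosome 8, Mt2 at 94172664 to 94173568 and Mt1 at 94179082 to 94180327, both on the plus strand. Mt2 overlaps Gm45774 on the minus strand, and since the strand setting of the counting was not stated, reads of that pair cannot be told apart. Gm45774 held 1 to 718 counts per library, equal to 5.3% to 17.6% of the Mt2 count. The neighbouring Mt3 had 3 counts over the 10 libraries and Mt4 had 0.

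Within groups Mt1 and Mt2 moved together. Each liver's log2 CPM was set against the mean of its own group, and these deviations had a Pearson r of 0.997 between Mt1 and Mt2 over 10 samples and of 0.981 over the 7 samples outside the MCS group. The genes with deviations most like those of the metallothioneins, among 9708 genes with a mean of at least 5 CPM, were Nucks1 (r = 0.988), Fkbp5 (0.984), Gm45774 (0.983), Mustn1 (0.982) and Rgs2 (0.973). Over the 7 samples without the MCS group the values were 0.966, 0.813, 0.908, 0.955 and 0.995. Nucks1 encodes a nuclear DNA-binding phosphoprotein, Fkbp5 a co-chaperone of the glucocorticoid receptor, Mustn1 a small nuclear protein known from muscle and Rgs2 a regulator of G-protein signalling. MCS control 3 carries most of the spread in these correlations, and the points share library depth. Of the other 7 zinc genes, Slc30a1 (r = 0.848) and Slc39a14 (0.822) were the most like the metallothioneins over the 10 samples and Slc39a5 (-0.513) the least. For these genes r was not taken without the MCS group, so how far it rests on MCS control 3 is not known. In WT Cre control 1, Slc30a1 (46.7 CPM) and Slc39a14 (220 CPM) were the highest of their group, where Mt1 was the lowest (2.33 CPM). In KO, Slc30a1 was highest in KO 4, like Mt1 and Mt2, and Slc39a14 in KO 2.

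Mtf1, the metal-sensing factor, was modestly higher in most KO livers. It was at 19.8, 18.7 and 19.3 CPM in the WT Cre controls, 17.5, 17.2 and 18.6 CPM in the MCS controls, and 19.0, 27.7, 28.2 and 36.1 CPM in KO 1 to 4. KO 2 to 4 were above all 6 controls, while KO 1 lay within the control range. The log2 fold change against the pooled controls was 0.59 (SE 0.138), and MCS control 3, at 18.6 CPM, was no outlier for this gene. Mtf1 lies on chromosome 4 (124802104 to 124849800, plus strand; coordinates here are those of GENCODE M21 on mm10) and overlaps 1110065P20Rik on the other strand and n-R5s192.

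Of the importers, Slc39a4 and Slc39a5 were higher in every KO liver than in every control. Slc39a4 encodes ZIP4, known for zinc uptake in the gut, where it sits at the cell surface. It was at 23.8, 24.2 and 24.4 CPM in the WT Cre controls, 33.8, 33.2 and 31.6 CPM in the MCS controls and 153, 173, 221 and 249 CPM in KO. The lowest KO liver was thus far above the highest control. The log2 fold change was 2.80 (SE 0.158) against all controls, 3.04 against the WT Cre and 2.60 against the MCS controls. Slc39a5 encodes ZIP5, an importer found on the basolateral side of epithelial cells. It was a weakly expressed gene at 2.29, 2.99 and 2.82 CPM in the WT Cre controls and 1.34, 0.580 and 0.447 CPM in the MCS controls, and it was at 15.1, 8.62, 8.43 and 5.55 CPM in KO. The log2 fold change of Slc39a5 was 2.40 (SE 0.482) against all controls, 1.79 against the WT Cre and 3.52 against the MCS controls. Slc39a4 lies on chromosome 15 (76612383 to 76617384, minus strand) with no overlapping gene. Slc39a5 lies on chromosome 10 (128395931 to 128401229, minus strand) and overlaps Ankrd52 on the other strand.

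Slc39a8 was the one importer lower in every KO liver than in every control. It encodes ZIP8, which carries zinc, manganese and iron. Slc39a8 was at 32.7, 31.6 and 37.1 CPM in the WT Cre controls, 30.3, 30.9 and 31.8 CPM in the MCS controls and 21.1, 18.9, 17.2 and 14.5 CPM in KO. The log2 fold change was -0.86 (SE 0.111), and the KO mean of 17.9 CPM stood at 55.3% of the control mean of 32.4 CPM. The gene lies on chromosome 3 (135825279 to 135888572, plus strand) and overlaps 4933401H06Rik, Gm43428 and Gm43429. Slc39a14, which encodes ZIP14, the importer linked to the acute-phase response, behaved otherwise. It was at 220, 188 and 183 CPM in the WT Cre controls, 255, 304 and 456 CPM in the MCS controls and 197, 218, 191 and 214 CPM in KO. The KO livers overlapped the WT Cre controls and lay below all 3 MCS controls, of which MCS control 3 was again the highest. The log2 fold change was 0.058 (SE 0.171) against the WT Cre, -0.72 (SE 0.17) against the MCS and -0.38 (SE 0.230) against all controls. Without MCS control 3 it was -0.45 against the MCS and -0.17 against all controls. Slc39a14 lies on chromosome 14 (70303469 to 70351425, minus strand).

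The exporters differed from each other. Slc30a1 encodes ZnT1, which exports zinc across the plasma membrane and is the transporter gene best known as an MTF1 target. It was at 46.7, 43.2 and 45.0 CPM in the WT Cre controls, 37.4, 35.7 and 44.5 CPM in the MCS controls and 60.7, 56.3, 59.3 and 61.4 CPM in KO. The groups did not overlap, and the log2 fold change was 0.50 (SE 0.0937). Slc30a10, the manganese exporter gene, was at 60.8, 70.2 and 86.7 CPM in the WT Cre controls, 65.5, 68.0 and 94.4 CPM in the MCS controls and 82.3, 63.8, 69.9 and 36.8 CPM in KO. Its groups overlapped (log2 fold change -0.23, SE 0.198), and the lowest value of all was in KO 4. Both exporter genes lie on the plus strand of chromosome 1, Slc30a1 at 191906767 to 191913247 and Slc30a10 at 185454848 to 185468762, and each overlaps a gene on the other strand (1700034H15Rik and Gm2061).

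**Figure D2:**
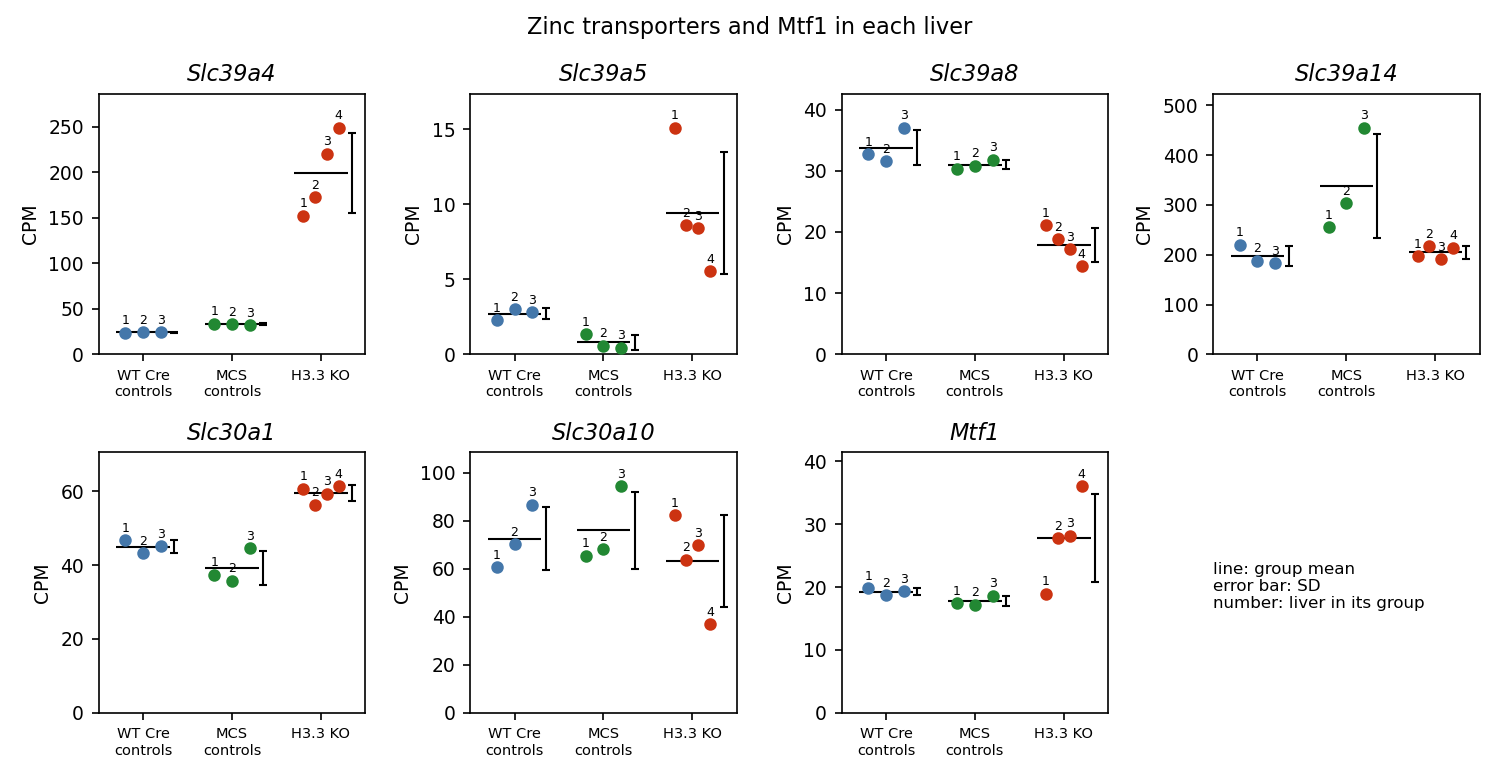
CPM of the 6 transporters and Mtf1 in each liver on linear axes that start at 0, with the liver's number in its group, the group mean as a line and the SD as an error bar. Slc39a4 lies between 153 and 249 CPM in KO and below 34 CPM in the controls, while Slc39a8 lies below all controls in KO.

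By the rule of an adjusted p under 0.05 over all genes, 5 of the 9 genes differed between KO and the pooled controls, 4 higher (Slc39a4, Slc39a5, Mtf1 and Slc30a1) and 1 lower (Slc39a8). Over all 22449 genes tested this rule called 36.3%, 19.7% higher and 16.6% lower. The members were chosen on this contrast, so nothing is read from the count. Without MCS control 3 the count was 7, where 36.4% of all genes were called, with Mt1 and Mt2 added among the higher genes, and leaving out any other single library left it at 5. The groups did not overlap for 3 genes above the controls and 1 below, against 12.5% and 12.0% of all genes. The median log2 fold change of the 9 genes was -0.23 with all controls and 0.59 without MCS control 3, and the median over all genes was -0.0030. With scaling by library size alone the median over all genes was 0.17, and all 9 log2 fold changes kept their sign.

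**Figure D3:**
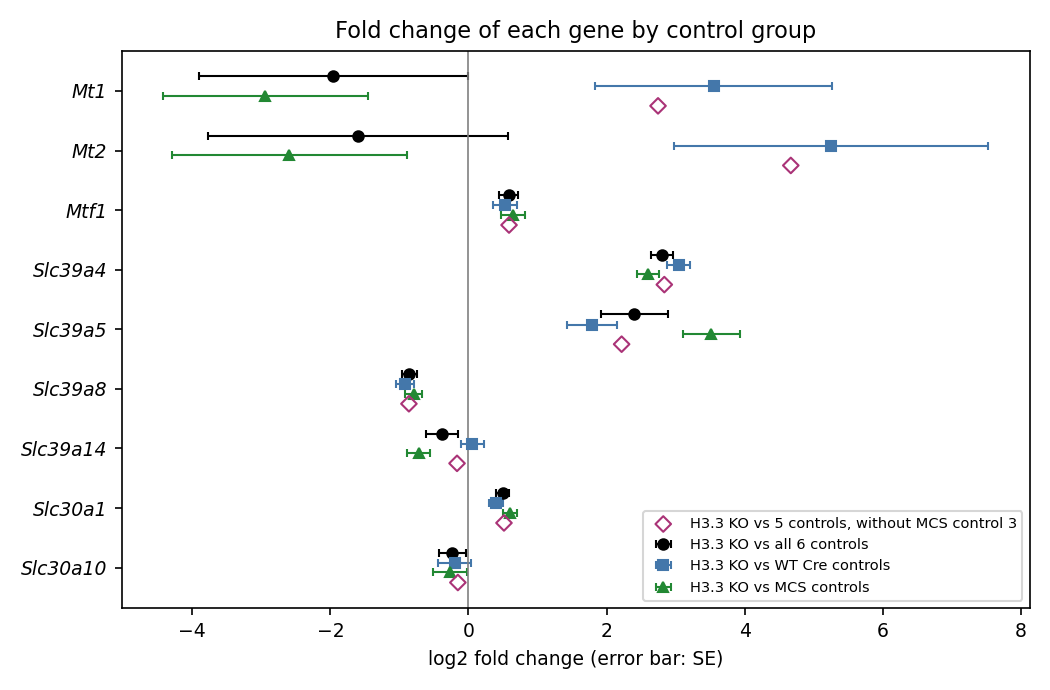
Log2 fold change of each gene in KO against all 6 controls, the WT Cre controls and the MCS controls, with the SE as an error bar, and against 5 controls without MCS control 3 as an open diamond without error. The metallothioneins change sign with that library, from -1.95 to 2.74 for Mt1, and the other 7 genes keep theirs without it.

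The KO livers were not alike. KO 4 was the highest KO liver for Mt1, Mt2, Mtf1, Slc39a4 and Slc30a1 and the lowest for Slc39a5, Slc39a8 and Slc30a10. KO 1 was the lowest for Mtf1 and Slc39a4 and the highest for Slc39a5, Slc39a8 and Slc30a10. Mt1 and Mt2 in KO 4 were 3.11 and 4.04 times the mean of the other 3 KO livers, and Slc39a4 was 1.37 times. The Kupffer cell and macrophage marker sum was 719 CPM in KO 1, the lowest of the 4, and 1615 CPM in KO 4, the highest. The stellate marker sum was likewise lowest in KO 1 (476 CPM) and highest in KO 4 (750 CPM), as was the endothelial sum (241 and 439 CPM). The hepatocyte sum ran the other way, highest in KO 1 (96239 CPM) and lowest in KO 4 (82681 CPM). Lymphoid and neutrophil sums were lowest in KO 1 but not highest in KO 4, and the cholangiocyte sum was highest in KO 1. The part of these cell markers in the order of the zinc genes was not tested.

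Levels of different genes were compared per kilobase of exon. In the 5 controls without MCS control 3, Slc39a14 was the most abundant at 21.8 ± 4.78 CPM per kilobase (SD, n = 5). Slc30a10 (12.0 ± 1.69), Slc39a4 (8.97 ± 1.66), Slc30a1 (7.94 ± 0.916) and Mt1 (5.84 ± 3.78) followed in CPM per kilobase. Slc39a8 (4.24 ± 0.352), Mt2 (2.80 ± 1.54), Mtf1 (2.08 ± 0.128) and Slc39a5 (0.901 ± 0.460) were lower on that scale. Of these neighbours, the ranges of Slc39a14 and Slc30a10, and those of Mtf1 and Slc39a5, did not overlap, and the ranges of the other neighbours did. In the KO livers Mt2 (71.1 ± 61.6 CPM per kilobase, SD, n = 4) and Slc39a4 (64.0 ± 14.2) were at the top, followed by Mt1 (39.1 ± 27.2), and the ranges of each with the next overlapped. Slc39a14 came after them at 19.4 ± 1.23 CPM per kilobase. Below it were Slc30a1 (11.3 ± 0.425), Slc30a10 (10.8 ± 3.29), Slc39a5 (4.24 ± 1.82), Mtf1 (3.11 ± 0.785) and Slc39a8 (2.34 ± 0.365). Of the neighbours in this order, the ranges of Slc39a14 and Slc30a1 did not overlap and those of the others did. In the deposited FPKM table the KO means led with Mt2 (159 ± 149), Mt1 (94.6 ± 68.5) and Slc39a4 (75.9 ± 19.9), so the order of these 3 genes differed between the scales. The order in the 5 controls differed too. By FPKM Mt1 (12.0 ± 6.84) stood above Slc30a10 (10.8 ± 2.03) and Slc39a4 (9.61 ± 1.28), and Slc39a8 (7.92 ± 1.17) above Slc30a1 (6.57 ± 1.10).

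WT Cre against MCS livers is a contrast that the choice of genes did not use directly. The same control livers did enter that choice, so the test is not independent of it. The WT Cre and MCS livers differ in genotype and in Cre. Of all genes tested 0.927% passed an adjusted p under 0.05. By edgeR 0 of the 9 genes passed, with 5 at an unadjusted p under 0.05 (Mt1, Mt2, Slc39a4, Slc39a5 and Slc39a14). DESeq2 called 2 of them (Slc39a5 and Slc39a14), where it called 4.1% of the 15886 genes to which it gave an adjusted p. Limma voom called 0 of the 9, with 3 at an unadjusted p under 0.05, and 0.927% of all genes. The nearest to the threshold was Slc39a14, lower in the WT Cre controls (log2 fold change -0.78, SE 0.184, edgeR adjusted p = 0.0803, and 0.00868 to 0.337 over the alternatives), with all 3 WT Cre livers below all 3 MCS livers. Without MCS control 3 its log2 fold change was -0.50. Slc39a5 was higher in the WT Cre controls in 3 of 3 livers (1.73, SE 0.434, edgeR adjusted p = 0.107, and 0.00431 to 0.338 over the alternatives). Slc39a4 was lower in all 3 (-0.45, SE 0.162, edgeR adjusted p = 0.313). For Mt1 and Mt2 the log2 fold changes were -6.49 (SE 1.98, edgeR adjusted p = 0.265) and -7.85 (SE 2.52, edgeR adjusted p = 0.292), and -1.52 and -1.17 without MCS control 3. The groups did not overlap for 6 of the 9 genes, against 22.2% of all genes, and those 6 were Mt1, Mt2, Mtf1, Slc39a4, Slc39a5 and Slc39a14.

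The rest of the zinc transporter families was tested between KO and the 6 controls. Of 20 further ZIP, ZnT and metallothionein genes 18 passed the count filter. Among those 18, 6 rose, 2 fell and 10 did not pass an adjusted p under 0.05, or 44.4% called against 36.3% of all genes. The count ran from 5 to 8 when single libraries were left out, with 5 both without WT Cre control 3 and without KO 4, and it was 8 without MCS control 3. Their median log2 fold change was 0.12.

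Among the other 10 ZIP genes 2 rose and 1 fell. Slc39a13, which encodes ZIP13 of the secretory pathway, was at 8.61 to 11.2 CPM in controls and 16.9 to 18.1 CPM in KO (log2 fold change 0.83, SE 0.10, edgeR adjusted p = 5.46e-05). Slc39a11, which encodes ZIP11, rose from a mean of 26.0 to 36.9 CPM (0.50, SE 0.101, edgeR adjusted p = 0.00185). Slc39a2, a plasma membrane importer gene, fell from 2.39 to 1.34 CPM (-0.81, SE 0.272, edgeR adjusted p = 0.0326), a call that was lost in 10 of 19 alternatives.

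Of the other 8 ZnT genes 4 rose and 1 fell (62.5% called, against 36.3% of all genes). Slc30a3, which encodes ZnT3, known for loading zinc into synaptic vesicles, had 5 to 10 counts per control library and 11, 59, 47 and 66 counts in KO (log2 fold change 2.62, SE 0.334, edgeR adjusted p = 7.80e-05). Slc30a2, which encodes the vesicular transporter ZnT2, had 1 to 5 counts per control library and 6 to 12 in KO (2.27, SE 0.473, edgeR adjusted p = 0.00236), so that both rest on few reads. Slc30a9, which encodes the mitochondrial zinc exporter ZnT9, rose from a mean of 64.6 to 95.7 CPM (0.57, SE 0.104, edgeR adjusted p = 0.00105). Slc30a8, the zinc transporter of insulin granules, passed as lower with 0 counts in all 4 KO libraries and 0 to 6 in the controls, which is too few for a fold. That call was lost in 8 of 17 alternatives. The fourth riser, Slc30a5 (0.55, SE 0.189, edgeR adjusted p = 0.0391), named here after its values were seen, lost its call in 10 of 19 alternatives, among them 9 of the 10 that left out a library. The ZnT count of 5 fell to 3 without WT Cre control 3, MCS control 2, KO 2, KO 3 or KO 4.

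**Figure D4:**
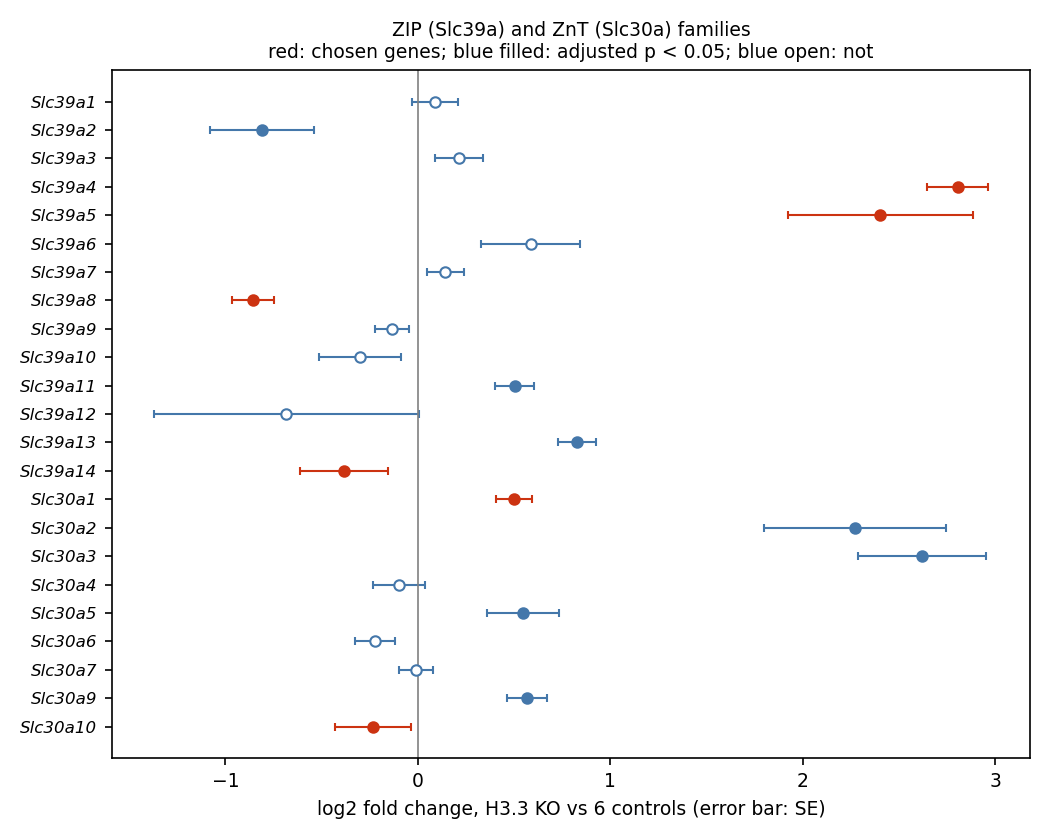
Log2 fold change of the ZIP (Slc39a) and ZnT (Slc30a) genes in KO against the 6 controls, with the SE as an error bar; red points are the genes chosen for this description, and filled blue points passed an adjusted p under 0.05. Slc39a4 at 2.80, Slc30a3 at 2.62, Slc39a5 at 2.40 and Slc30a2 at 2.27 lie farthest to the right; Slc30a8 is left out for its low counts.

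Genes around these families were counted in the same comparison. Of 6 further MTF1 targets 2 rose, Csrp1, which encodes a LIM domain protein (1.19, SE 0.155, edgeR adjusted p = 9.10e-05), and the selenoprotein gene Selenow (0.32, SE 0.101, edgeR adjusted p = 0.0233). The list median was -0.02, and 33.3% of the list passed, against 36.3% of all genes. The list was not split by the direction in which MTF1 acts, so its count and median do not measure MTF1 activity. Slc39a10, named after its values were seen, is in this list and also among the other ZIP genes. Selenow lost its call with the replicate block and without KO 3, which left 1 gene. Without WT Cre control 1 or without KO 4 the count was 3, with Ndrg1, named after its values were seen, falling. Of 11 copper genes 3 fell: Ccs, the copper chaperone of superoxide dismutase (-0.68, SE 0.120, edgeR adjusted p = 0.000825), Commd1, which takes part in copper export (-0.63, SE 0.120, edgeR adjusted p = 0.00123), and the copper importer gene Slc31a1 (-0.33, SE 0.10, edgeR adjusted p = 0.0197). The Slc31a1 call was lost in 6 of 19 alternatives. The copper count of 3 (27.3%, against 36.3% of all genes) was 2 without KO 3 or without KO 4, 5 without MCS control 3 and 7 without KO 1, with 2 of the genes rising in each of these last fits. Of 4 manganese genes outside the members 0 passed by edgeR with all libraries and 1 was at an unadjusted p under 0.05. DESeq2 called 1, limma voom 0, and edgeR without KO 1 also called 1.

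The IL-6 and STAT3 list, like the metallothioneins, moved with MCS control 3. With all controls 4 of its 14 genes fell and none rose: the fibrinogen chain genes Fgb (-1.73, SE 0.356, edgeR adjusted p = 0.00318), Fga (-1.70, SE 0.334, edgeR adjusted p = 0.00234) and Fgg (-1.66, SE 0.375, edgeR adjusted p = 0.00570), and the acute-phase gene Orm1. This was 28.6% of the list, against 36.3% of all genes. Without MCS control 3, 10 of the 14 passed, where 36.4% of all genes were called. The same 4 genes fell, with Fgb at -1.43, Fga at -1.39, Fgg at -1.31 and Orm1 at -0.67, while Lcn2, Orm2, Saa1, Saa2, Socs3 and Stat3 rose. Orm1 and these 6 genes are named after their values were seen. The list median went from -0.18 to 0.33. Saa1, for example, was at 74.3, 172, 107 and 93.9 CPM in KO, above the 17.4 to 58.3 CPM of 5 controls and below the 1706 CPM of MCS control 3. Mt1 and Mt2 in KO also lay above those 5 controls and below MCS control 3. Their highest KO liver was KO 4, and that of Saa1 was KO 2. Of 8 glucocorticoid-responsive genes 2 fell, Errfi1 (-1.12, SE 0.357, edgeR adjusted p = 0.0307) and Tat (-1.05, SE 0.317, edgeR adjusted p = 0.0231). Each call was lost in 7 of 19 alternatives. Without any 1 of the 3 MCS controls 1 gene passed, and 0 passed by edgeR without KO 2 or without KO 3, with 2 at an unadjusted p under 0.05 in each. Without KO 1 the count was 2, with Errfi1 falling, Tat lost and Sgk1, named after its values were seen, rising. The part of inflammation or of glucocorticoids in the metallothionein levels was not tested.

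**Figure D5:**
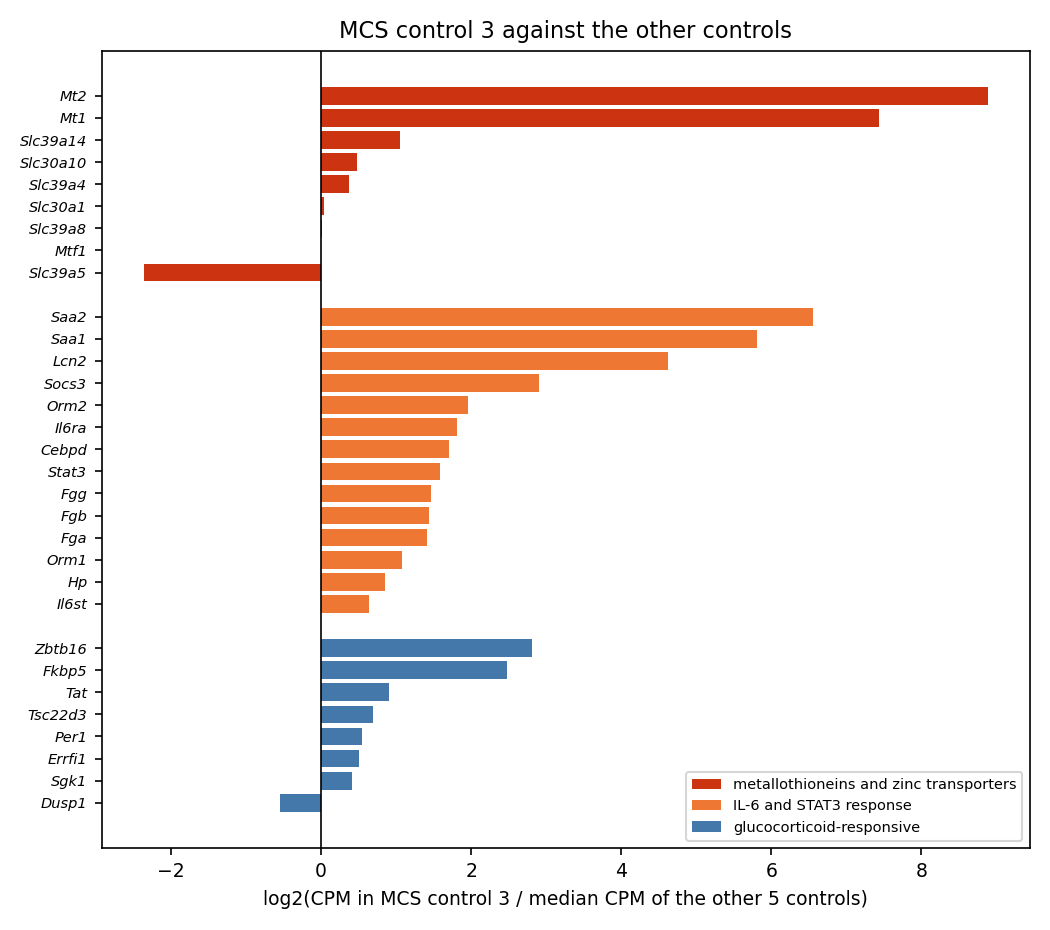
Log2 ratio of the CPM in MCS control 3 to the median CPM of the other 5 controls for the 9 genes, 14 IL-6 and STAT3 genes and 8 glucocorticoid-responsive genes. Those 5 controls mix WT Cre and MCS livers, which themselves differ for some of these genes. Mt2 (8.88) and Mt1 (7.43) have the longest bars, all 14 IL-6 and STAT3 genes point to the right, and Slc39a5 (-2.36) points to the left.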

How the data were processed

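Whole-liver poly(A) RNA of 10 male mice was sequenced from directional libraries. The submitters' processing notes name STAR, HTSeq, Cufflinks and mm10, and the study's methods name STAR and HOMER, so the program behind the gene table is not settled, and its strand setting, handling of reads with several matches and annotation were not stated. The authors deposited whole-number counts per gene (55421 identifiers, no normalization) and a table of FPKM values, which has values for all 90 member cells and was used for levels and as an alternative.

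The test covered 22449 genes that reached 10 counts in the sum of all libraries (33924 had any count). It was the two-sided quasi-likelihood test of edgeR 4.0.16 (R 4.3.3) with TMM factors and Benjamini-Hochberg adjustment over all genes tested. KO against all 6 controls came from a 2-group fit. Other contrasts came from a fit of 3 groups with 1 dispersion. CPM are counts scaled to 1e6 TMM-adjusted counts per library, and exon lengths were those of GENCODE M21. Alternatives were DESeq2 1.42.0, limma 3.58.1 (voom), other scalings and filters, log2(FPKM + 1) and log2(FPKM + 0.1) with limma, a replicate block, and leaving out each library. The code was tested on simulated counts.

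The members and gene lists were chosen with earlier results of these data known. The text names all members, H3f3a and H3f3b, of each other list up to 3 genes with the largest rise and 3 with the largest fall past the threshold, and the 5 genes most like Mt1 and Mt2; a gene outside this rule is marked as named after its values were seen. No batch was given in the labels. Replicates differed with a chi-square of 10.3 to 96.7 for each degree of freedom, so none was a repeated library. The labels name each sample as a mouse liver, and p-values measure the spread between these samples.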

Additional observations from a re-analysis of the deposited data

Results flagged for a closer look

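Of 22 groups of 4 to 6 samples examined for a sample far from the rest, 5 were flagged. The rule flags about 1 in 20 groups of independent, normally spread values. Mt1 and Mt2 moved together and the controls pool different kinds, so the count is no test of an excess. MCS control 3 was far above the other controls for Mt1 (1099 CPM, the next highest control at 13.9) and for Mt2 (757 CPM, the next at 3.01). KO 4 was far above the other KO livers for Mt1 (99.1 CPM, the next at 35.8) and for Mt2 (96.0 CPM, the next at 25.5). WT Cre control 3 was above the other controls for Slc39a8 (37.1 CPM, the next at 32.7), a gap that leaves all controls above all KO livers.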

How the results depend on the processing

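The direction of Mt1, Mt2 and Slc30a10 between KO and the pooled controls depended on the processing. The log2 fold change of Mt1 was 1.69 by limma voom, 1.07 with a replicate block, 1.65 on log2(FPKM + 1), 1.75 on log2(FPKM + 0.1) and -2.56 to 2.74 when single libraries were left out, the highest without MCS control 3. For Mt2 the values were 3.23, 2.58, 2.91, 3.12 and -2.42 to 4.67. Against the MCS controls alone Mt2 was at 1.25 by voom and 1.11 and 1.20 on the FPKM scales, and leaving out single libraries gave -3.41 to 4.08 for Mt2 and -3.55 to 2.03 for Mt1, again highest without MCS control 3. The voom and FPKM fits work on log values, and the cause of the turn with the block was not tested. For Slc30a10, whose groups overlap, the log2 fold change was 0.022 and 0.020 on the FPKM scales against all controls, 0.083 and 0.086 against the MCS controls, 0.0047 with the block against the WT Cre controls, and between the kinds of control 0.086 by library size only, 0.12 and 0.13 on the FPKM scales and -0.21 to 0.12 without single libraries. Slc39a8 was at -0.58 on log2(FPKM + 1), and Slc30a1 at 0.67 by library size only and 0.70 on log2(FPKM + 0.1), with the cause not tested. The other members kept their sign against the pooled controls in all alternatives, and Mtf1 lost its call on both FPKM scales.

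The count of genes that differed between the kinds of control was 208 by edgeR, 651 by DESeq2, 315 with no low count filter, 386 with the replicate block and 70 to 517 when single libraries were left out. The lists around the zinc genes had 11 genes past the threshold, 7 with the replicate block and 7 to 18 without single libraries, the most without MCS control 3. The other zinc genes gave 5 to 8. For the block, same-numbered samples shared only a number: their deviations from the group means correlated at -0.0387 to 0.111 over 9 pairs, and not every sample correlated best with its own number. The block left the 5 member calls between KO and controls in place. Depth limits Slc30a2, Slc30a3, Slc30a8 and Mt2 in the WT Cre controls, which have few counts. It also limits Slc39a5 in MCS controls 1 to 3 (33, 13 and 8 counts) and Slc39a2 (12 to 70 counts per library).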
